A study of Saccharomyces cerevisiae with 73 samples.

Results

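The 10 transcription regulators and sensors of amino acid and purine synthesis in budding yeast were followed on whole-genome arrays: GCN4, GCN2, LEU3, MET4, MET28, MET32, LYS14, BAS1, PHO2 and CBF1. They were taken by gene symbol, each had 1 probe, and together they are 10 of the 5538 genes measured. Their systematic names are YEL009C (GCN4), YDR283C (GCN2), YLR451W (LEU3), YNL103W (MET4), YIR017C (MET28), YDR253C (MET32), YDR034C (LYS14), YKR099W (BAS1), YDL106C (PHO2) and YJR060W (CBF1). Yeast answers a shortage of amino acids through a general system and through pathway regulators. In the general system the kinase Gcn2 senses uncharged tRNA and raises translation of the GCN4 mRNA, so that Gcn4, an activator of many amino acid synthesis genes, is controlled to a large part after transcription. Leu3 and Lys14 are activators whose activity depends on a pathway intermediate, Met4 is an activator without DNA binding of its own that works with Met28, Cbf1, Met31 and Met32 on sulfur genes, and Bas1 with its partner Pho2 activates purine synthesis genes. For such proteins the transcript level measured here is only 1 layer of control.

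All cells were strain KCN118, of mating type alpha and S288C background with an ade2 allele, so every group carries the same defect in purine synthesis. They grew at 28 °C to mid-log phase in a complete dextrose medium with amino acids and inositol, were filtered, washed and moved to 1 of 13 media, and were sampled after 15, 30, 60, 120 and 240 min. Each array set shifted cells (Cy5) against cells from before the shift (Cy3, t = 0), and each medium was 1 culture, so the culture is the replicate. In dextrose there were 5 cultures: SD (no amino acids, no inositol), SD+ino (no amino acids, with inositol), SD+aa (all amino acids, no inositol), SD+aa:ARNCQGKPSDEFTY+ino and SD+aa:LIVWHM+ino. The last pair held partial amino acid sets in 1-letter code, and of these the first set lacks leucine, isoleucine, valine, tryptophan, histidine and methionine, which are the whole of the second set. The depositors' description of the series does not name D, E and Y among the amino acids left out of the second set, and the titles were followed here. In ethanol and in galactose there were 4 cultures each, without additions (SEtOH, Sgal), with inositol (SEtOH+ino, Sgal+ino), with all amino acids (SEtOH+aa, Sgal+aa) and with both (SEtOH+aa+ino, Sgal+aa+ino). Nothing in the labels puts a carbon source, an amino acid set or an inositol level in more than 1 culture with all else equal. The p-values therefore rest on the spread within pairs of cultures that differ only in inositol, applied to all 13 cultures. SD+aa and the partial sets have no such partner and add nothing to that spread.

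There were 73 arrays, of which 8 repeated the RNA comparison of another array and were averaged with it, leaving 65 points of 1 culture at 1 time. Per array, 4954 to 6254 probes had a value. All values below are log2 ratios to t = 0, or differences of such ratios between groups, computed from deposited values read as log10 ratios. Their base is not stated, so that if the base was 2 the log2 values shrink by a factor of 3.32 and p-values stay. Their direction, also not stated, was read as shifted cells over t = 0, and read so the sulfur genes were above t = 0 in dextrose without amino acids, GAL1 and GAL7 in galactose and a list of stress genes late in ethanol and galactose, while ribosome biogenesis genes were below. A dye effect of a probe adds to its ratios to t = 0 and drops out of differences between media. Each ratio is relative to the other mRNA of a whole culture, in which a change in all cells and a change in some of them cannot be told apart. As a check of the galactose label, GAL1, which encodes galactokinase, was late at 1.73 in galactose and at 1.18 in ethanol, with a difference of ethanol minus galactose of -0.55 (adjusted p = 0.0783, limma with Benjamini-Hochberg adjustment). GAL7, of the same pathway, was at 2.48 in galactose and 2.62 in ethanol, with a difference of 0.14 (adjusted p = 0.734), so neither gene passed a test between the galactose and the ethanol cultures.

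Values were complete for 8 members, while MET28 had 59 and MET32 had 47 of 65 values. In all, 24 of 650 member values were missing and 0 reached the limits of the deposited scale. Over its 59 values MET28 spanned 6.63 log2 units, more than 95.6% of the 5217 genes with at least 60 values, whose median range was 2.18. GCN4 spanned 3.43, LYS14 2.55, LEU3 2.26, GCN2 2.20, BAS1 2.10, MET4 1.76, PHO2 1.60 and CBF1 1.22. MET32 spanned 0.856 over its 47 values. Between repeat arrays of the same RNA comparison the standard deviation was 0.0586 for LEU3 to 0.216 for MET28, against a median of 0.105 over all genes.

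**Figure D1:**
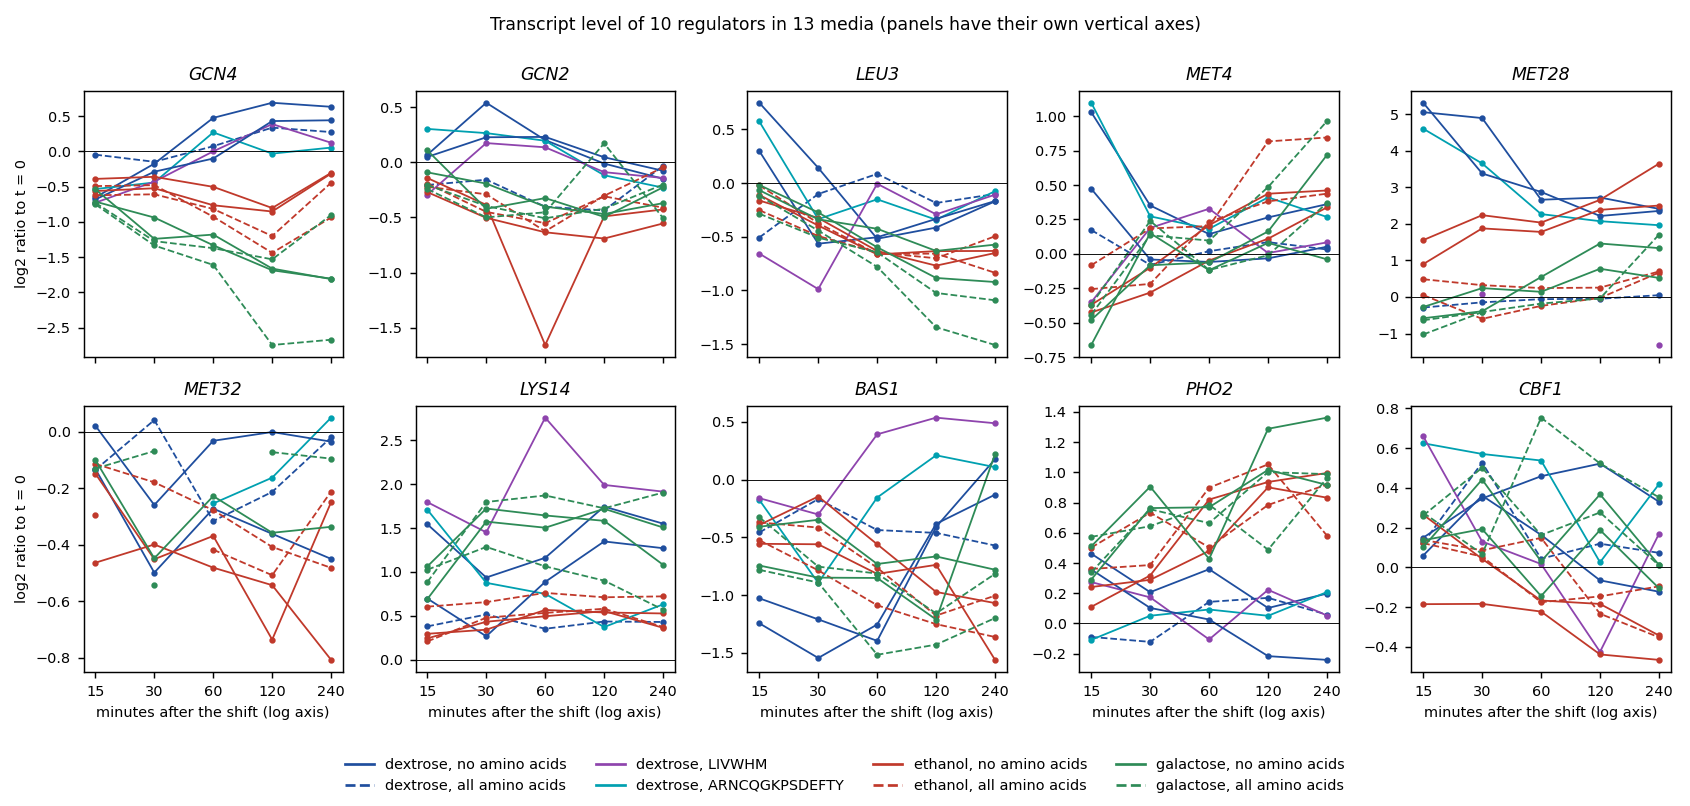
Log2 ratio to t = 0 (vertical axis, own scale in each panel) of the 10 regulators against minutes after the shift (log axis), 1 line per culture, with colour for carbon source or partial amino acid set and broken lines for media with all amino acids. MET28 reaches 5.32 in dextrose without amino acids, GCN4 falls to -2.75 in galactose with all amino acids and inositol, and LYS14 is above 0 at all 65 points.

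Culture values were tested in limma in an early window (mean of 15 and 30 min), a late window (mean of 120 and 240 min) and over all 5 times, with Benjamini-Hochberg adjustment over all genes and a threshold of 0.05. A gene entered a test only with a value in every culture, which left MET32 out of all of them and MET28 out of all but the early window. Against t = 0 early, 7 of 9 members tested passed in dextrose without amino acids, where 74.6% of all genes did, 7 of 9 in ethanol (60.0% of all genes) and 8 of 9 in galactose (66.0%). Late, 1 of 8 passed in dextrose without amino acids (12.7% of all genes), 8 of 8 in ethanol (78.8%) and 7 of 8 in galactose (81.8%). The members' counts were not tested against these shares. From early to late 3 of 8 members changed in dextrose without amino acids (55.8% of all genes), 5 of 8 in ethanol (70.0%) and 4 of 8 in galactose (73.1%). Quantile normalization, which gives all arrays 1 distribution, left the direction of each ratio to t = 0 that passed early or late but changed its size. In ethanol the 7 early ratios were 1.59 to 1.91 times as large and the 8 late ones 0.582 to 0.663 times, and in galactose the 8 early ones 1.26 to 1.67 times and the 7 late ones 0.555 to 0.702 times. In dextrose without amino acids the 7 early ones were 0.379 to 0.957 times as large and the late one of LYS14 1.54 times, so that changes from early to late depend on the scaling.

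Removal of amino acids was compared within each carbon source. In dextrose 2 of 9 members passed early, MET28 and BAS1, where 51.7% of all genes did, and 0 of 8 late (1.71% of all genes). At 15 min alone 6 of 8 passed in dextrose, 4 higher and 2 lower, where 55.2% of all genes did. LYS14 and PHO2 were among the higher ones, at 0.83 and 0.51 in the fit without the LIVWHM culture. Without SD they were at 0.33 and 0.44. In ethanol 1 of 9 passed early, MET28 (0.141% of all genes), and 0 of 8 late (0.614%). In galactose 0 of 9 passed early, where 0% of all genes passed in limma and 290 of 4962 had an unadjusted p under the same threshold, and 0 of 8 late (0.748%). At an unadjusted p under the threshold the counts were 1 of 8 late in dextrose, 0 of 8 late in ethanol, and 0 of 9 early and 2 of 8 late in galactose. The amino acid effect itself differed between dextrose and ethanol early for 3 of 9 members, MET28, BAS1 and PHO2 (42.4% of all genes), and between dextrose and galactose for MET28 and BAS1 (43.1%). Late, 0 of 8 differed in either comparison (0.594% and 1.61% of all genes in limma), and 0 of 8 had an unadjusted p under the threshold.

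**Figure D2:**
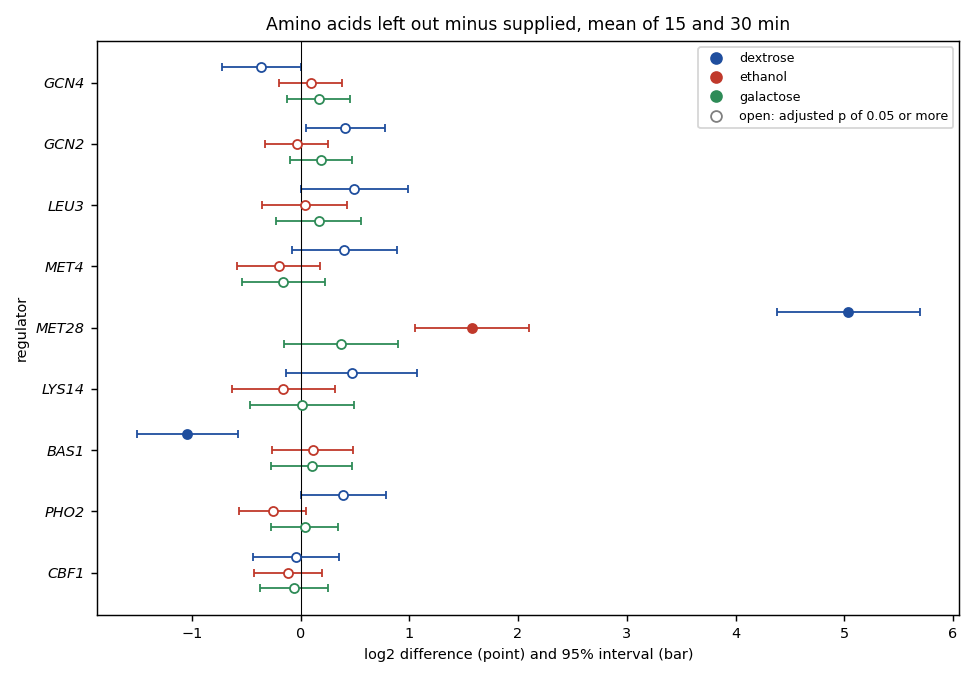
Log2 difference between media without and with amino acids (horizontal axis, mean of 15 and 30 min) for the 9 regulators tested, in dextrose (2 cultures against 1), ethanol (2 against 2) and galactose (2 against 2), with points for the limma estimate, bars for its 95% interval and filled points for adjusted p under 0.05. MET28 stands at 5.04 in dextrose and 1.58 in ethanol and BAS1 at -1.04 in dextrose, and the other points are open.

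MET28, a bZIP cofactor that stabilises the Met4 complex on DNA, had the largest response of the 10 regulators. At 15, 30, 60, 120 and 240 min it stood at 5.06, 4.90, 2.66, 2.72 and 2.41 in SD. In SD+ino it stood at 5.32, 3.38, 2.88, 2.22 and 2.36. In the partial set without methionine, SD+aa:ARNCQGKPSDEFTY+ino, it stood at 4.61, 3.66, 2.27, 2.08 and 1.96. In all 3 dextrose media without methionine it was thus highest at 15 min and between 1.96 and 2.41 at 240 min. In SD+aa it stayed between -0.29 and 0.05, and in SD+aa:LIVWHM+ino, which holds methionine, its 2 measured values were 0.08 at 30 min and -1.31 at 240 min. No measured value of a dextrose medium with methionine overlapped those of the 3 media without it. This split was not tested, and how many of all genes share it was not counted. Early, removing amino acids raised MET28 by 5.04 in dextrose (95% interval 4.38 to 5.70, adjusted p = 2.42e-07, limma). Its value in the LIVWHM culture in that window comes from the 30 min array alone.

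In ethanol MET28 took another course in time. It stood at 1.56, 2.24, 2.04, 2.66 and 3.65 in SEtOH and at 0.90, 1.88, 1.78, 2.39 and 2.50 in SEtOH+ino, while SEtOH+aa lay between 0.24 and 0.70 and SEtOH+aa+ino between -0.60 and 0.67. The cultures without amino acids were above those with them at every time, a split that was not counted over all genes. Without amino acids the values at 240 min were above those at 15 min. The early difference was 1.58 (1.06 to 2.10, adjusted p = 0.041), a call that was lost when any 1 of SEtOH, SEtOH+aa, SEtOH+aa+ino, SEtOH+ino, Sgal+aa, Sgal+aa+ino or the ARNCQGKPSDEFTY culture was left out (1.35 to 1.81, adjusted p up to 0.76). In galactose MET28 stood at -0.58, -0.39, 0.55, 1.46 and 1.34 in Sgal and at -0.27, 0.24, 0.14, 0.77 and 0.52 in Sgal+ino. With amino acids it went from -0.64 to 1.71 in Sgal+aa and had only -1.03 and -0.42 in Sgal+aa+ino, so the galactose groups overlapped at 240 min. The early difference in galactose was 0.37 (-0.15 to 0.89, adjusted p = 0.831). The effect of amino acid removal on MET28 was larger in dextrose than in ethanol by 3.46 (2.62 to 4.30, adjusted p = 3.66e-05) and larger than in galactose by 4.67 (3.82 to 5.51, adjusted p = 4.53e-06). With genes that lack values admitted, the late differences were 2.66 in dextrose (adjusted p = 0.00258), 2.40 in ethanol (adjusted p = 0.00229) and 0.43 in galactose (adjusted p = 0.386), in fits that drop the cultures without a value. Additive terms, which hold the amino acid effect alike in all carbon sources, gave 1.94 for its early difference (adjusted p = 0.644).

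The other parts of the Met4 complex moved far less at the transcript level. Against t = 0, MET4, the activator itself, rose early in dextrose without amino acids by 0.45 (adjusted p = 0.00561), a call lost without SD (0.15, adjusted p = 0.287). It stood at 15 min at 1.03 in SD, 0.47 in SD+ino and 1.10 in SD+aa:ARNCQGKPSDEFTY+ino, against 0.17 in SD+aa and -0.35 in SD+aa:LIVWHM+ino. By 30 min it was at 0.35, -0.04 and 0.27 in the first 3 and at -0.08 and 0.19 in the last pair, so that the groups overlapped. At 15 min alone the amino acid difference in dextrose was 0.62 (adjusted p = 0.0284), a call that was lost without SD (0.27, adjusted p = 0.22), and over 15 and 30 min it was 0.40 (-0.08 to 0.88, adjusted p = 0.148). In ethanol and galactose MET4 began below t = 0, at -0.43 to -0.08 and -0.66 to -0.37 at 15 min, and rose from early to late by 0.67 (0.40 to 0.94, adjusted p = 0.00082) and 0.53 (0.26 to 0.80, adjusted p = 0.00316). Late it was above t = 0 by 0.48 in ethanol (adjusted p = 0.00775) and 0.34 in galactose (adjusted p = 0.0353). These late calls were lost without SEtOH+aa+ino (0.31) or SEtOH+ino (0.37) in ethanol, and without Sgal (0.25), Sgal+aa (0.21), SD or SD+ino (0.34 each) in galactose. With quantile normalization the early value in dextrose was 0.25 (adjusted p = 0.127) and the late value in galactose 0.20 (adjusted p = 0.0929).

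MET32, a zinc finger protein that helps bring Met4 to sulfur genes, stayed between -0.81 and 0.05 in its 47 values, and 0 of them reached 2-fold. Its lowest value was in SEtOH at 240 min. It had no value in SD+aa:LIVWHM+ino and Sgal+aa+ino and was not tested. CBF1, a helix-loop-helix protein that acts at sulfur genes and at centromeres, stayed between -0.46 and 0.75, also with 0 values at 2-fold. It passed early in galactose (0.25, adjusted p = 0.00995) and late in ethanol (-0.28, adjusted p = 0.0463), and fell from early to late in ethanol by 0.32 (adjusted p = 0.0322). The call in galactose was lost without Sgal+aa (0.21) or Sgal+ino (0.18). Those in ethanol were lost without any 1 of the 4 ethanol cultures (late -0.22 to -0.34, change -0.29 to -0.36), or without Sgal or Sgal+ino. They were also lost with arrays centred on their medians (late -0.17, change -0.27) and with quantile normalization (-0.16 and -0.28). In SD+aa, which kept dextrose and all amino acids, CBF1 was at 0.32 early. With all amino acids, galactose differed from SD+aa early by 0.002.

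The sulfur genes that Met4 controls moved with MET28. Early in dextrose 23 of 23 tested targets rose on amino acid removal (median 4.49, against 0.04 over all genes), beside 51.7% of all genes called, led by the sulfate permease gene SUL1 (6.00), the ATP sulfurylase gene MET3 (5.91), the APS kinase gene MET14 (5.32) and the cystathionine beta-lyase gene STR3 (5.31). In ethanol 5 of 23 rose early (median 0.58) and 20 of 23 late (median 2.27), and in galactose 0 of 23 early (5 at an unadjusted p under 0.05, median 0.17) and 7 of 23 late (median 1.14). Over the 59 points with a MET28 value, the Pearson correlation between MET28 and the median of the targets was 0.94. It was 0.31 for MET4 and 0.12 for CBF1 over 65 points and -0.01 for MET32 over 47. The points share cultures and the t = 0 reference, and MET28 is itself known as a target of Met4. Among other parts of the complex and its ubiquitin ligase, the F-box gene MET30 rose by 2.16 and MET31 by 1.68 early in dextrose, and CDC53 by 0.60.

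GCN4, the general activator, fell early in every group tested, also where amino acids were absent. At 15 min it stood at -0.65 in SD, -0.68 in SD+ino, -0.53 in SD+aa:ARNCQGKPSDEFTY+ino and -0.73 in SD+aa:LIVWHM+ino, against -0.05 in SD+aa. The 4 dextrose media short of amino acids were thus all below SD+aa, a split that was not counted over all genes. At 15 min alone the difference without minus with amino acids in dextrose was -0.66 (adjusted p = 0.00308, limma), where 55.2% of all genes passed and 6 of 8 members did. Over 15 and 30 min it was -0.36 (-0.73 to 0.00, adjusted p = 0.0876). From early to late GCN4 rose by 1.00 in dextrose without amino acids (0.47 to 1.52, adjusted p = 0.00572), to 0.66 in SD and 0.43 in SD+ino, a call that was lost without SD+ino (0.82, adjusted p = 0.105). The late level itself did not pass against t = 0 (0.55, -0.00 to 1.10, adjusted p = 0.178).

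In galactose GCN4 went the other way. It stood at -0.71, -0.94, -1.33, -1.69 and -1.81 in Sgal, at -0.54, -1.24, -1.18, -1.66 and -1.81 in Sgal+ino and at -0.75, -1.34, -1.61, -2.75 and -2.67 in Sgal+aa+ino. In Sgal+aa it stood at -0.73, -1.27, -1.37, -1.53 and -0.90, so that culture had turned upward by 240 min. The change from early to late in galactose was -0.91 with the values as deposited and 0.12 with quantile normalization (adjusted p = 0.383), which turned its direction. In ethanol the 4 cultures lay between -1.44 and -0.30 from 60 min on. Late, GCN4 was below t = 0 by -1.85 in galactose (-2.24 to -1.46, adjusted p = 8.67e-06) and by -0.79 in ethanol (-1.18 to -0.40, adjusted p = 0.00221). Ethanol exceeded galactose by 0.43 early (adjusted p = 0.0329) and by 1.06 late (0.52 to 1.61, adjusted p = 0.0225). The early call was lost without any 1 of the 8 ethanol and galactose cultures (0.39 to 0.48, adjusted p up to 0.287), with additive terms (0.43, adjusted p = 0.539) and with quantile normalization (0.45, adjusted p = 0.0503), and at 15 min alone the difference was only 0.17 (adjusted p = 0.429). The late call was lost without SEtOH+aa, SEtOH+aa+ino, SEtOH+ino, Sgal or Sgal+ino (0.93 to 1.20, adjusted p up to 0.104).

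GCN2, the kinase, moved little. Against t = 0 it rose early in dextrose without amino acids (0.22, 0.02 to 0.42, adjusted p = 0.0469), and fell by 0.31 in ethanol (adjusted p = 0.00206) and by 0.24 in galactose (adjusted p = 0.00694). The call in dextrose was lost without SD (0.13) or without any 1 ethanol or galactose culture (0.22 each), and that in galactose without Sgal+aa+ino (-0.22, adjusted p = 0.0542). At 15 min alone the values were 0.06 and -0.11 (adjusted p = 0.522 and 0.134), and the dextrose call was also lost with arrays centred on their medians (0.17) and with quantile normalization (0.08). Late it was lower in ethanol (-0.40, adjusted p = 0.00162) and galactose (-0.31, adjusted p = 0.00636). In SD+aa, which kept dextrose and all amino acids, GCN2 was also below t = 0, at -0.18 early and -0.23 late. A single value reached 2-fold, -1.66 in SEtOH+ino at 60 min, between -0.39 at 30 min and -0.49 at 120 min in the same culture.

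Arginine and histidine genes that Gcn4 activates rose on amino acid removal early in dextrose, where 51.7% of all genes were called. GCN4 itself was lower by -0.36 there, which did not pass, and early in dextrose without amino acids it was below t = 0 by -0.45. In that comparison 7 of 7 tested arginine genes rose (median 2.37), with ARG3 at 3.22, ARG1 at 2.68, and ARG4 and the ornithine carrier gene ORT1 at 2.37 each. Of 7 histidine genes 6 rose and 1 fell (median 1.07), with HIS4 at 3.45, HIS5 at 2.09, HIS1 at 1.54 and HIS3 at 1.07. Of 13 aromatic amino acid genes 5 rose and 2 fell (median 0.23), with TRP3 at 1.53, ARO3 at 1.41, TRP4 at 0.97 and ARO2 at -0.99, so the 7 of 13 called were near the share of all genes. Of 18 genes that control GCN4 translation or Gcn4 breakdown, a list that includes GCN2 and GCN4, 2 rose and 11 fell (median -1.19). The largest falls were those of GCD10 (-3.44) and GCD14 (-1.96), which encode a tRNA methyltransferase, of GCD11 (-1.99), a subunit of initiation factor eIF2, and of GCD2 (-1.78), a subunit of eIF2B. In ethanol and galactose 0 of these 7 arginine, 7 histidine, 13 aromatic and 18 control genes passed early in limma, and 1 histidine gene in ethanol had an unadjusted p under 0.05. Over 65 points GCN4 correlated with the median of the arginine genes at 0.59, of the histidine genes at 0.68 and of the aromatic genes at 0.55.

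LEU3, the activator of branched-chain amino acid genes whose switch is the intermediate alpha-isopropylmalate, had a short rise. At 15 min it stood at 0.75 in SD, 0.30 in SD+ino and 0.57 in SD+aa:ARNCQGKPSDEFTY+ino, the dextrose media without leucine, isoleucine and valine. In the media that hold them it stood at -0.51 (SD+aa) and -0.66 (SD+aa:LIVWHM+ino). The 3 media lacking the LIVWHM set were all above both others at 15 min for LEU3, MET4 and GCN2, 3 of the 8 members with values on these arrays, and for 16.3% of all 4705 genes. They were all below for 0 of 8 members and 17.0% of genes. This split was chosen after the values were seen and carries no test. By 30 min LEU3 was at 0.14, -0.57 and -0.34 in the 3 media and at -0.10 in SD+aa, so the groups overlapped.

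At 15 min alone the amino acid difference of LEU3 in dextrose was 1.05 (adjusted p = 0.00128), while over 15 and 30 min it was 0.49 (0.00 to 0.99, adjusted p = 0.0868). Over 15 and 30 min the LIVWHM medium was below the media without amino acids by -0.95 (adjusted p = 0.0114) and below the ARNCQGKPSDEFTY medium by -0.94 (adjusted p = 0.0233). In these windows 4 of 9 and 3 of 9 members passed, against 25.4% and 19.9% of all genes. Over all 5 times the differences were -0.24 (adjusted p = 0.509) and -0.34 (adjusted p = 0.50). In ethanol and galactose LEU3 went to between -0.84 and -0.50 in the 4 ethanol cultures and between -1.51 and -0.57 in the 4 galactose cultures at 240 min. Late it was below t = 0 by -0.67 in ethanol (-0.90 to -0.44, adjusted p = 0.000223) and by -0.998 in galactose (-1.23 to -0.77, adjusted p = 1.58e-05). The fall from early to late was -0.74 in galactose (adjusted p = 0.00094) and -0.41 in ethanol (adjusted p = 0.024), the latter lost without SEtOH (-0.44), SEtOH+aa+ino (-0.30) or SEtOH+ino (-0.37). With quantile normalization the change was -0.20 in galactose (adjusted p = 0.146) and turned to 0.01 in ethanol (adjusted p = 0.93). Its small early falls in ethanol (-0.27, adjusted p = 0.0224) and galactose (-0.26, adjusted p = 0.0242) were lost without SEtOH (-0.24), SEtOH+aa (-0.19) or SEtOH+ino (-0.29), and without Sgal (-0.25), Sgal+aa (-0.20) or Sgal+ino (-0.26). At 15 min alone they were -0.14 and -0.12 (adjusted p = 0.171 and 0.205), and with arrays centred on their medians the ethanol value was -0.21 (adjusted p = 0.0563). In SD+aa, which kept dextrose and all amino acids, LEU3 was also below t = 0 early, at -0.30. With all amino acids, ethanol differed from SD+aa early by 0.05 and galactose by -0.0007.

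The targets of Leu3 rose for longer than LEU3 itself. In SD their median was 0.78, 0.30, 1.29, 0.90 and 0.90 over the 5 times, while LEU3 was below 0 from 60 min on. Early in dextrose 7 of 11 rose and 1 fell without amino acids (median 1.28), with LEU1 at 2.98, LEU2 at 1.69 and LEU4 at 1.56, which make leucine, and the glutamate dehydrogenase gene GDH1 at 2.48, beside 51.7% of all genes called. In the LIVWHM medium against the ARNCQGKPSDEFTY medium, over all times, 1 rose and 6 fell of 11 (median -1.49), beside 6.00% of all genes called. The 1 that rose was GDH1 (2.52), while LEU1 was at -3.39 and LEU2 at -2.08. Late in ethanol 1 rose and 8 fell of 11 (median -1.15), and in galactose 0 rose and 10 fell (median -1.33). There 78.8% and 81.8% of all genes were called, so the counts were near those shares, while the median over all genes was -0.12 and -0.15. The correlation of LEU3 with the median of its targets over 65 points was 0.72.

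LYS14, the activator of lysine synthesis genes whose switch is alpha-aminoadipate semialdehyde, was above t = 0 at all 65 points. The highest series was that of SD+aa:LIVWHM+ino, a medium without lysine, at 1.79, 1.45, 2.76, 1.99 and 1.91. In SD it stood at 1.54, 0.94, 1.16, 1.74 and 1.55 and in SD+ino at 0.70, 0.27, 0.89, 1.35 and 1.27. In SD+aa:ARNCQGKPSDEFTY+ino, which holds lysine, it began at 1.71 and 0.88 and went to 0.37 and 0.63 at 120 and 240 min, and in SD+aa it stayed between 0.35 and 0.52. From 60 min on the 3 dextrose media without lysine were all above the 2 with it, which was not tested and was noticed after the values were seen. How many of all genes split in this way was not counted. Over all 5 times the LIVWHM medium exceeded the ARNCQGKPSDEFTY medium by 1.11 (0.43 to 1.80, adjusted p = 0.0672) and the media without amino acids by 0.80 (0.18 to 1.41, adjusted p = 0.126), with 1 culture of each partial set. In dextrose without amino acids LYS14 was above t = 0 by 0.86 early (adjusted p = 0.000337) and 1.48 late (1.00 to 1.95, adjusted p = 0.00273), and the change of 0.62 passed (adjusted p = 0.0124). The late call was lost without SD (1.10, adjusted p = 0.126), and that of the change without SD (0.64) or SD+ino (0.59). The change at 240 min from 15 min was 0.29 (adjusted p = 0.353).

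LYS14 was also higher in galactose than in ethanol on average. Early it stood between 1.13 and 1.39 in the 4 galactose cultures and between 0.32 and 0.63 in the 4 ethanol cultures, and late between 0.74 and 1.81 against 0.46 and 0.72. The window means did not overlap, and how many of all genes did the same was not counted. Late, Sgal+aa (0.736) lay above SEtOH+aa+ino (0.717) by less than the standard deviation of 0.147 between repeat arrays. At 240 min alone the groups overlapped, with Sgal+aa at 0.57 and SEtOH+aa+ino at 0.72. Ethanol minus galactose was -0.85 early (-1.18 to -0.51, adjusted p = 0.0154) and -0.83 late (-1.30 to -0.35, adjusted p = 0.0312). The early call was lost without SEtOH, SEtOH+aa, SEtOH+ino, Sgal, Sgal+aa+ino or Sgal+ino (-0.72 to -0.89, adjusted p up to 0.0849). The late call was lost without any 1 ethanol culture, Sgal or Sgal+ino (-0.77 to -0.89, adjusted p up to 0.132). The early difference was -0.58 at 15 min alone (adjusted p = 0.152) and did not pass with additive terms (-0.85, adjusted p = 0.384), and the late one was -0.77 at 240 min alone (adjusted p = 0.0702) and -0.46 with quantile normalization (adjusted p = 0.0881). Against t = 0 LYS14 rose in galactose by 1.25 early (adjusted p = 2.38e-06) and 1.37 late (adjusted p = 2.35e-05), and in ethanol by 0.41 early (adjusted p = 0.00728) and 0.55 late (adjusted p = 0.00747). The calls in ethanol were lost without SEtOH+aa+ino (0.28) or SEtOH+ino (0.38) early and without SEtOH (0.49) late. In SD+aa, which kept dextrose and all amino acids, LYS14 was likewise above t = 0, by 0.45 early and 0.43 late. With all amino acids, ethanol exceeded SD+aa by only 0.10 early, so these ratios do not set ethanol apart from dextrose.

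The lysine genes followed LYS14 in some media and not in others. In SD+aa:LIVWHM+ino their median was 1.02, 1.01, 2.44, 1.74 and 1.54, below LYS14 by less than 1 log2 unit at each time. In SD it was -0.76, -1.73, -0.28, 0.88 and 0.77 and in SD+ino -0.29, -1.11, 0.93, 1.31 and 1.10, below LYS14 early. Early in dextrose, on amino acid removal, 2 of 8 rose and 5 fell (median -0.90, beside 51.7% of all genes called), with LYS4 at -1.45, LYS20 at -1.16, LYS12 at -1.08 and LYS21 at -1.03. In the LIVWHM medium 7 of 7 rose over the media without amino acids (median 1.38, beside 7.24% of all genes called). Late in ethanol 1 rose and 7 fell of 8 against t = 0 (median -1.52), and late in galactose 1 rose and 6 fell (median -1.23), where LYS14 rose. In these groups 78.8% and 81.8% of all genes were called, with medians of -0.12 and -0.15. The correlation over 65 points was 0.44.

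**Figure D3:**
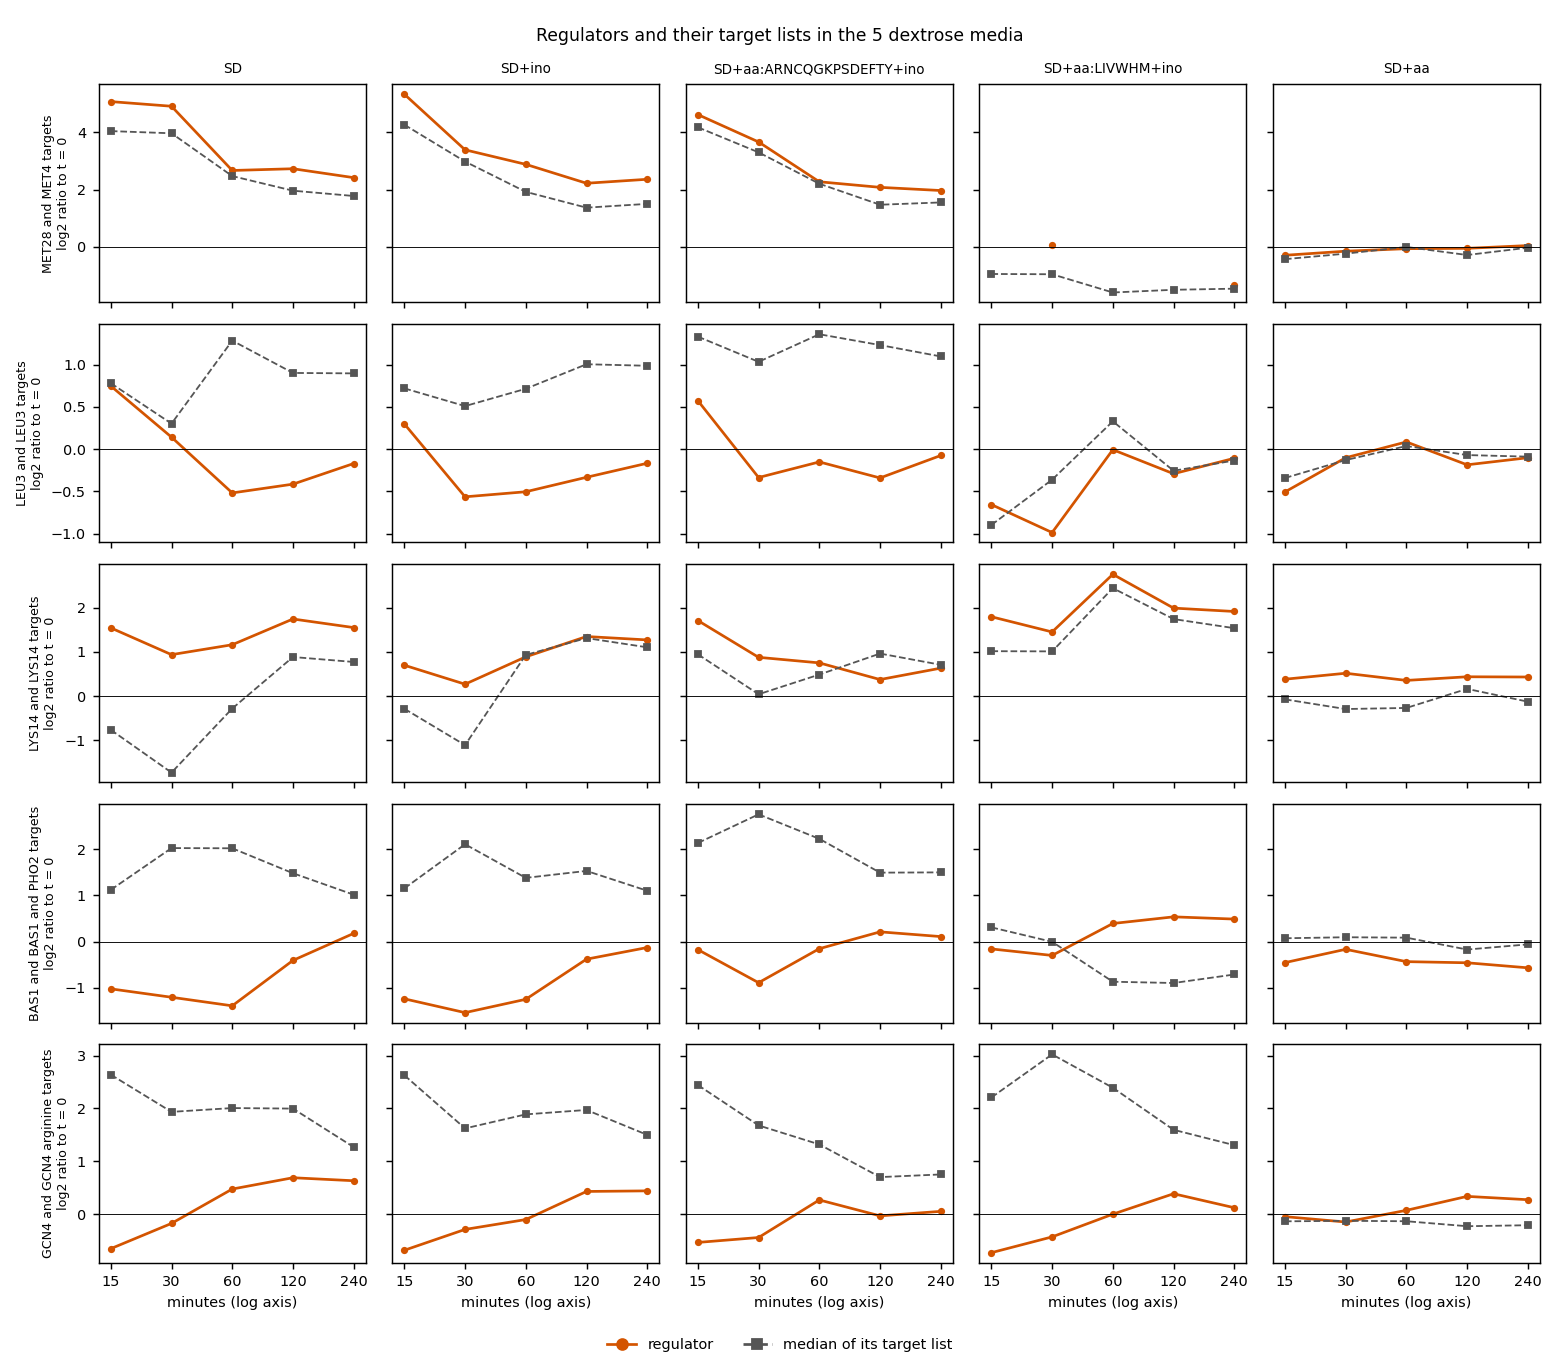
Log2 ratio to t = 0 (vertical axis, shared along a row) of MET28, LEU3, LYS14, BAS1 and GCN4 (solid lines) and of the median of a list of their targets (broken lines; for MET28 the targets of Met4) against minutes after the shift (log axis) in the 5 dextrose media, 1 culture each. MET28 runs with its list, and LEU3 is below its list at every time in the 3 media without LIVWHM. BAS1 is below 0 while its list is above 0 early in SD and SD+ino.

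BAS1, the Myb-type activator of purine and one-carbon genes, fell early in SD and SD+ino, where its targets rose. At the 5 times it stood at -1.03, -1.21, -1.40, -0.41 and 0.18 in SD and at -1.24, -1.54, -1.25, -0.38 and -0.13 in SD+ino. In SD+aa it stood at -0.46, -0.17, -0.44, -0.46 and -0.57. In SD+aa:ARNCQGKPSDEFTY+ino it stood at -0.18, -0.89, -0.16, 0.21 and 0.11, and in SD+aa:LIVWHM+ino at -0.16, -0.30, 0.39, 0.54 and 0.49. The media without any amino acids were thus the lowest of the 5 up to 60 min, and the LIVWHM medium was the highest from 60 min on. This order was not tested and was not counted over all genes. Early, the difference without minus with amino acids in dextrose was -1.04 (-1.51 to -0.57, adjusted p = 0.00185), and the effect in dextrose minus that in ethanol was -1.15 (adjusted p = 0.0056) and minus that in galactose -1.14 (adjusted p = 0.00582). With quantile normalization these values were -0.39, -0.44 and -0.38 and did not pass (adjusted p = 0.253, 0.36 and 0.425), nor did the first with additive terms (-0.17, adjusted p = 0.725). From early to late BAS1 rose by 1.07 in dextrose without amino acids (0.73 to 1.41, adjusted p = 0.000368).

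Over all 5 times the LIVWHM medium exceeded the media without amino acids by 0.95 for BAS1 (0.52 to 1.38, adjusted p = 0.0113), the 1 of 8 members that passed, where 7.24% of all genes did. The call was lost without SD+ino (0.72, adjusted p = 0.154). For the ARNCQGKPSDEFTY medium against no amino acids 0 of 8 members passed (3.64% of all genes), with BAS1 at 0.58 (adjusted p = 0.14), and 0 of 8 passed between the partial sets (6.00% of all genes). In these 2 comparisons limma called 188 and 310 of 5164 genes, with 911 and 744 at an unadjusted p under the threshold, among them 1 of 8 members each. Late, BAS1 was below t = 0 by -1.14 in ethanol (-1.37 to -0.92, adjusted p = 6.29e-06) and by -0.88 in galactose (-1.10 to -0.65, adjusted p = 3.24e-05). In ethanol the change from early to late was -0.67 (adjusted p = 0.000416), and 0.20 with quantile normalization (adjusted p = 0.0779), which turned its direction. In Sgal a value of 0.22 at 240 min followed -1.21 at 120 min, while the other 3 galactose cultures were at -1.20 to -0.78 at 240 min.

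The purine and one-carbon genes that Bas1 and Pho2 activate rose early without amino acids in dextrose in 14 of 14 tested cases (median 1.87, beside 51.7% of all genes called). ADE17 stood at 3.00, the glycine cleavage gene GCV1 at 2.75, ADE2 at 2.40 and ADE12 at 2.33, and ADE2 is the gene of the strain's ade2 allele. In the LIVWHM medium 13 of 14 fell against the media without amino acids (median -2.01, beside 7.24% of all genes called), with ADE17 at -5.01, GCV1 at -3.38, ADE12 at -2.08 and ADE2 at -1.99. The targets and BAS1 thus had opposite signs in both comparisons. Against t = 0 their signs were not opposite in all media and at all times. In SD+aa:ARNCQGKPSDEFTY+ino they were opposite at 15 min, with the median of the targets at 2.14 and BAS1 at -0.18. At 120 min both were above t = 0 in that medium, at 1.49 and 0.21. At 60 and 120 min the median of the targets and BAS1 were both below t = 0 in every ethanol and galactose culture. In the ARNCQGKPSDEFTY medium against none 0 of 14 passed in limma (3 at an unadjusted p under 0.05, median 0.37). Over 65 points the correlation of BAS1 with the median of its targets was -0.01.

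PHO2, a homeodomain protein that pairs with Bas1 and also with Pho4 of the phosphate system, rose in ethanol and galactose. At 240 min it stood between 0.58 and 1.00 in the 4 ethanol cultures and between 0.92 and 1.36 in the 4 galactose cultures, against -0.24 to 0.21 in the 5 dextrose cultures. The dextrose cultures lay below all others, and how many of all genes did the same was not counted. Late, PHO2 was above t = 0 by 0.88 in ethanol (0.65 to 1.10, adjusted p = 3.22e-05) and by 1.00 in galactose (0.78 to 1.23, adjusted p = 1.27e-05). From early to late it changed by 0.51 in ethanol (adjusted p = 0.000861) and 0.41 in galactose (adjusted p = 0.0031), but quantile normalization turned both, to -0.05 (adjusted p = 0.706) and -0.23 (adjusted p = 0.095). In dextrose without amino acids it was at 0.28 early (adjusted p = 0.0227), a call lost without SD (0.22, adjusted p = 0.169), with arrays centred on their medians (0.23, adjusted p = 0.0522) and with quantile normalization (0.13, adjusted p = 0.371), and at -0.04 late. Early, the effect of amino acid removal was larger in dextrose than in ethanol by 0.65 (adjusted p = 0.0391), lost without SD (0.57), SEtOH (0.67), SEtOH+aa+ino (0.52), SEtOH+ino (0.61), Sgal+aa or Sgal+aa+ino (0.66 each), or with quantile normalization (0.77, adjusted p = 0.0595). Over 65 points PHO2 correlated with the median of the purine genes at -0.55 and with GCN4 at -0.71.

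**Figure D4:**
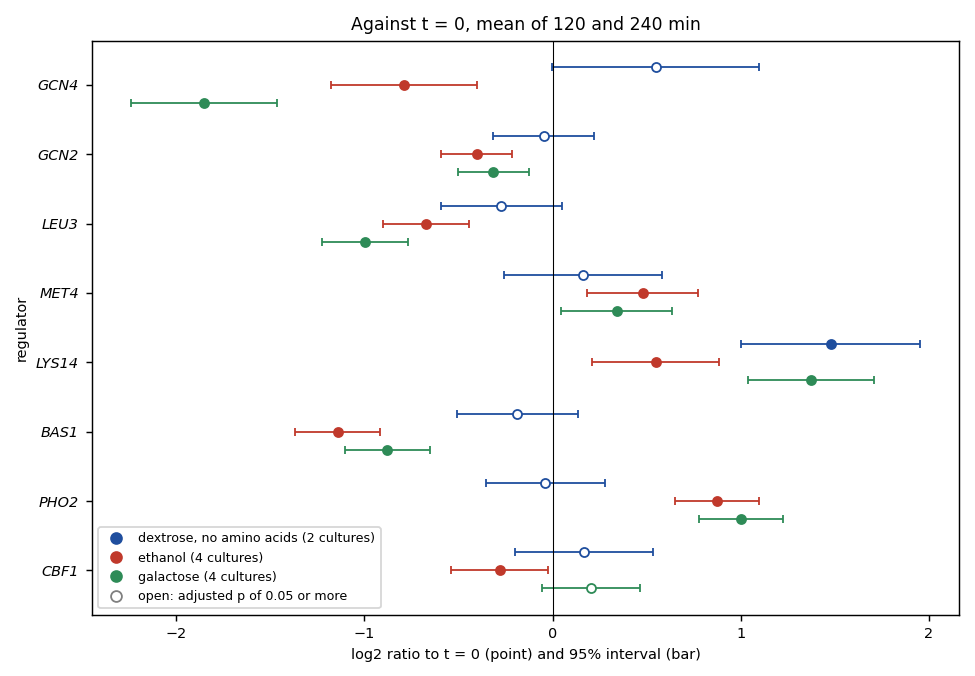
Log2 ratio to t = 0 (horizontal axis, mean of 120 and 240 min) of the 8 regulators tested late, in dextrose without amino acids (2 cultures), ethanol (4) and galactose (4), with points for the limma estimate, bars for its 95% interval and filled points for adjusted p under 0.05. LYS14 is the filled dextrose point, at 1.48, while GCN4, LEU3, BAS1 and GCN2 are below 0 and PHO2, MET4 and LYS14 above 0 in both ethanol and galactose.

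To ask what the carbon source changed where amino acids were supplied, the 2 ethanol and the 2 galactose cultures with all amino acids were set against SD+aa. Early, 0 of 9 members passed for ethanol (10.9% of all genes, and 2 of 9 members at an unadjusted p under 0.05) and 2 of 9 for galactose, GCN4 and PHO2 (16.1%). Late, 2 of 8 passed for ethanol, BAS1 and PHO2 (46.8% of all genes), and 4 of 8 for galactose, GCN4, LEU3, BAS1 and PHO2 (56.2%). GCN4 was lower in galactose by -0.94 early (adjusted p = 0.00383) and by -2.06 late (-3.04 to -1.08, adjusted p = 0.00396). LEU3 was lower by -1.07 late (-1.65 to -0.49, adjusted p = 0.00729), and by only -0.15 with quantile normalization (adjusted p = 0.451). PHO2 was higher in galactose by 0.69 early (adjusted p = 0.0249) and 0.83 late (adjusted p = 0.0195), and in ethanol by 0.81 late (adjusted p = 0.0263). The early call was lost without SEtOH, SEtOH+ino (0.68 each), Sgal+aa (0.74) or Sgal+aa+ino (0.65), and the ethanol call without SEtOH+aa+ino (0.70). With quantile normalization the late differences of PHO2 were 0.23 in galactose (adjusted p = 0.469) and 0.32 in ethanol (adjusted p = 0.323). The ethanol call was also lost with the first array of each repeat alone (0.72, adjusted p = 0.062) and at 240 min alone (0.73, adjusted p = 0.107), and the early galactose call at 15 min alone (0.55, adjusted p = 0.0576) and with additive terms (0.44, adjusted p = 0.0578). BAS1 was lower by -0.71 in ethanol (adjusted p = 0.0444) and by -0.66 in galactose (adjusted p = 0.0492). Those calls were lost without SD, SD+ino or any 1 ethanol culture, and in galactose also without Sgal+aa (-0.46) or the LIVWHM culture (-0.66), with -0.79 to -0.46 and adjusted p up to 0.205 across these. They were lost as well with arrays centred on their medians (-0.65 and -0.59) and at 240 min alone (-0.60 and -0.43), and in galactose with probes without a gene included (adjusted p = 0.0508). With quantile normalization they turned to 1.25 and 1.40 (adjusted p = 0.00359 and 0.00211), while centring kept their direction. The direction of BAS1 between these media thus depends on whether all arrays are given 1 distribution. At 120 and 240 min the stress list had medians of 0.26 and 0.39 in SD+aa. In the ethanol and galactose cultures with all amino acids its medians were 4.26 to 5.96. A single dextrose culture stands on 1 side of each comparison.

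Between ethanol and galactose, 3 of 9 members differed early, GCN4, LYS14 and MET28 (2.70% of all genes), and 2 of 8 late, GCN4 and LYS14 (18.5%). MET28 was higher in ethanol by 1.29 early (0.92 to 1.66, adjusted p = 0.005), with -0.27 to 1.90 in the 4 ethanol cultures and -0.72 to -0.02 in the 4 galactose cultures, which overlap. With additive terms the value was the same and did not pass (adjusted p = 0.902). Against t = 0 it rose in ethanol by 0.85 (adjusted p = 0.000127) and fell in galactose by 0.44 (adjusted p = 0.00731), the latter lost without Sgal (-0.19, adjusted p = 0.118). The stress response list rose in both carbon sources late (16 of 16, median 5.42 in ethanol and 4.80 in galactose, beside 78.8% and 81.8% of all genes called), and the ribosome biogenesis list fell (22 of 22, medians -2.13 and -1.86). These lists are given as the setting in which the regulators changed, and their part in the members' changes was not tested.

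Leaving out inositol changed 0 of 8 members over all 5 times, and 0% of all genes passed in limma, with 360 of 5164 and 0 of 8 members at an unadjusted p under the threshold. The largest member differences without minus with inositol were 0.17 for GCN4 (-0.08 to 0.43, adjusted p = 0.69) and -0.17 for BAS1 (-0.38 to 0.05, adjusted p = 0.678).

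Among 30 other regulators of amino acid and nitrogen genes, 29 were tested early in dextrose, and 12 rose and 4 fell without amino acids (median 0.31), 16 of 29 in all beside 51.7% of all genes. GAT1 (2.10) and GLN3 (1.04), GATA activators of nitrogen genes, UGA3 (1.00), the activator of GABA use, and STP2 (0.98), an activator of amino acid permease genes, moved most. In ethanol and galactose 0 of these 29 passed early in limma, with 0 and 1 at an unadjusted p under 0.05. The genes whose course over the 65 points was most like a member's were TSC10 (Pearson 0.91), AMD1 (0.90) and MRS2 (0.90) for GCN4 and GFD1 (0.89), ORM2 (0.88) and YMR114C (0.88) for PHO2. For LEU3 they were KAE1 (0.83), RGA1 (0.81) and SET1 (0.80), for MET4 GLN3 (0.79), YTP1 (0.78) and PEX7 (0.75), and for CBF1 MOG1 (0.78), END3 (0.73) and DOC1 (0.72). For BAS1 they were SOF1, INA1 and SPB4 (0.77 each), for GCN2 RTC1 (0.72), AYT1 (0.69) and SDT1 (0.69), and for LYS14 RTR2, SUT1 (0.68 each) and YMR050C (0.67). MET28 and MET32 had fewer than 60 values and were not compared in this way.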

How the data were processed

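The authors deposited a table of values per probe for 73 two-colour arrays. The numbers were taken to be log10 of shifted over t = 0 signal, since they end at exactly 2 in either direction, and multiplied by 3.32. The base, direction, normalization and scanner background of the deposited log10 values are not given in the sources used here. No further normalization was made. Repeat arrays and probes of a gene were averaged. Array signal was not used, so the number of arrays and cultures limits the precision. Of the repeats, 2 carry the unexplained note ojgrid. The labels disagree on which time of SEtOH+aa was repeated, so its titles (60 and 120 min) decided.

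Culture values in each window were fitted in limma 3.58.1 (R 4.3.3, lmFit and eBayes) with 8 means for carbon source by amino acid level and a term for inositol. P-values are 2-sided and Benjamini-Hochberg adjusted over 4942 to 5215 genes. Effects in dextrose rest on 2 cultures against 1, and each partial set is 1 culture whose spread is taken from the others. Each medium was 1 culture, so p-values measure the spread between media that differ only in inositol, after the term for inositol. The fit was tested on simulated data. The members, the 13 lists of 192 genes (189 with a probe) and the tests were chosen with earlier results of these data known. Named genes were the 10 members, up to 4 genes per list with the largest early amino acid difference in dextrose, the 3 genes most like each member, and GAL1, GAL7 and GAL10, of which GAL10 is not reported here. Correlations are descriptions over points that share cultures and the t = 0 reference. The alternatives were other normalizations, filters, probe sets, single times, an additive model, eBayes settings and leaving out each culture.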

Additional observations from a re-analysis of the deposited data

Results flagged for a closer look

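The amino acid effect early after the shift differed between carbon sources for 3 regulators in limma with Benjamini-Hochberg adjustment. For MET28 the effect was larger in dextrose than in ethanol by 3.46 and than in galactose by 4.67 on the log2 scale. For BAS1 the corresponding differences were -1.15 and -1.14, and for PHO2 the difference from ethanol was 0.65. The dextrose effect rests on 2 cultures without and 1 culture with amino acids, and no explanation was tested.

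Of 37 groups of 4 cultures examined for a value apart from the rest, chance would flag about 1 in 20, and 1 stood out. Early LYS14 in SEtOH+aa+ino was 0.63, while the other 3 ethanol cultures were between 0.32 and 0.34.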

How the results depend on the processing

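Of 72 differences of members past the threshold, 43 stayed past it with the same direction without any 1 culture. Under all other alternatives 40 did so (53 with quantile normalization left aside). These counts take a call as kept where an alternative could not fit it. Among genes with a value on every array only 42 of the 72 were fitted, and all 42 stayed. With additive terms 9 stayed, 7 were lost and the rest were not fitted. None of the 72 changed direction without a culture. Quantile normalization, which gives all arrays 1 distribution, turned 7 of them. These were the changes from early to late in ethanol of LEU3 (0.012), BAS1 (0.20) and PHO2 (-0.051) and in galactose of GCN4 (0.12) and PHO2 (-0.23), and late BAS1 with amino acids in ethanol (1.25) and galactose (1.40) against dextrose. Counts of member differences past the threshold moved by over 1.5 times as follows. For amino acid removal (3), 6 passed at 15 or 240 min alone and with quantile normalization, 5 with no filter, 1 among genes with a value on every array and 0 with additive terms over 11 cultures, which hold the amino acid effect alike in all carbon sources. For its difference between carbon sources (5), 9 passed at single times and 2 among genes with complete values. For carbon source with amino acids (8), 5 passed at single times, 14 with quantile normalization and 4 among genes with complete values. For ethanol against galactose (5), 1 passed at single times, 2 with additive terms, 3 with quantile normalization and 2 among genes with complete values. For partial sets (1), 7 passed over 15 and 30 min, 3 with quantile normalization and 2 with trend and robust eBayes. For ratios to t = 0 (38), 25 passed among genes with complete values. That filter removes MET28, MET32, GCN4 and PHO2, and 0 of the calls it left were lost, so its lower counts come from members not fitted. Without 1 culture the counts were 33 to 40 for ratios to t = 0, 10 to 19 for early to late, 2 to 7 for amino acid removal, 4 to 12 for its difference, 5 to 10 for carbon source, 1 to 6 for ethanol against galactose, 1 to 3 for partial sets and 0 to 0 for inositol. For the other moves the cause was not tested. Comparisons that need SD+aa or a partial set could not be fitted without that culture. No paired analysis was possible because each medium was 1 culture and the labels give no number shared between media. Spot signal over background was not used, so whether dim signal lies behind missing values, such as those of MET32, is not known.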
